A study of Homo sapiens with 24 samples.

Results

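Untreated A549 cells were compared between 24 h and 6 h of culture with PBS, the solvent control of an experiment with the antifibrotic drug Pirfenidone. A549 is an established human lung adenocarcinoma cell line. The comparison used 6 of the 24 one-color Agilent arrays of the study, chosen by their labels alone: A549 with PBS for 6 h (Rep1, Rep2 and Rep3) and A549 with PBS for 24 h (Rep1, Rep2 and Rep3). By their labels, both groups were PBS controls matched to 0.75 mg/ml Pirfenidone and received no drug. A figure legend of the study gives a higher Pirfenidone dose for A549 transcriptome data from 6 to 24 h. The other arrays held A549 cells with Pirfenidone and H1975 cells, another human lung adenocarcinoma line, with PBS or Pirfenidone at the same times, with 3 arrays in each of 8 groups. Nothing in the labels states whether the 3 samples of a group came from separate cultures, so the spread behind the p-values may be technical. That spread was estimated over all 24 arrays and not from the 6 compared arrays alone.

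Cells that meet fresh medium or serum switch on immediate early genes within minutes, through kinase signalling and serum response factor, and their transcripts are short-lived. In the hours that follow, a growing culture consumes nutrients, conditions its medium and becomes denser, and genes of lipid supply, stress and proliferation can follow. In another assay of the study the medium was replaced on the day after seeding together with the drug or PBS, and no source used here states whether the array cultures were handled in the same way. The question was which transcripts drifted with culture time in A549 cells labelled as untreated.

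Levels are given as log2 signal relative to the 75th percentile of each array, so that a level of 0 is that percentile and a difference of 1 is a doubling. On the 6 arrays 62.7% to 64.7% of the probes were well above background, the scanner software's own flag, and 0 spots were saturated. All 6 epithelial marker genes were well above background on every array, with a mean level of 3.95 to 4.70, and so were the 5 tested NRF2 target genes that mark A549, with 4.71 to 4.97. Of the 6 immune markers tested, 3 cleared the background flag on every array and 2 on none, and their mean level was -6.10 to -5.85. Of the 5 fibroblast markers, 2 cleared it everywhere and 3 nowhere, and among 3 endothelial markers these numbers were 1 and 2. No marker gene of any of these lists passed the test for a time change. Each replicate number lay on a slide of its own, with the 6 h PBS sample always at place 2 and the 24 h PBS sample always at place 4, so that time and place on the slide cannot be told apart.

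The array labelled PBS 24 h Rep3 stood apart. Its difference from the 6 h array of the same slide had an interquartile range of 0.65 across the probes, against 0.25 in each of the other pairs, and 11.7% of the tested probes differed by 1 or more, against 1.90% in the Rep1 pair and 2.28% in the Rep2 pair. It also went against its label relative to the Pirfenidone array of its slide. Across probes, the Pirfenidone minus PBS difference at 24 h had r = 0.39 between Rep1 and Rep2, but -0.38 between Rep1 and Rep3 and -0.55 between Rep2 and Rep3, while at 6 h the corresponding values were 0.29, 0.35 and 0.44. The median Pirfenidone minus PBS difference of the G2/M genes at 24 h was -0.20 in Rep1, -0.69 in Rep2 and 1.30 in Rep3. Results are therefore given with and without the Rep3 pair, and whether the labels of the PBS and Pirfenidone 24 h arrays of that slide were exchanged was not tested.

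With all 3 pairs, 108 of 23827 tested probes passed (percent called 0.453), with 61 lower at 24 h (0.256) and 47 higher (0.197). A probe passed when its Benjamini-Hochberg adjusted p from limma, fitted over all 24 arrays with a block (the slide in A549, the date in the file names in H1975), was at most 0.05 and its log2 fold change was at least 1 in size. All 108 moved the same way in all 3 pairs, and the groups of 3 arrays did not overlap for 93 of them, against 3578 of all tested probes (percent called 15). Without the Rep3 pair 30 probes passed (percent called 0.126), 17 lower (0.0713) and 13 higher (0.0546). Of these, 25 had also passed with all pairs, 14 lower and 11 higher. The 83 that were lost all kept their sign, which had to follow because all 3 pairs moved the same way. A change of at least 1 without Rep3 was kept by 67 of the 108, which had been chosen partly on the Rep1 and Rep2 arrays. By the adjusted p alone, with no fold limit, 375 probes were called (percent called 1.57). The median log2 fold change was -1.28 for the lower probes, and -1.14 for the same probes without Rep3, and 1.31 for the higher probes, and 1.18 without Rep3.

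Several single arrays also moved the count. Without the array labelled PBS 24 h Rep3 alone 38 probes passed, without PBS 6 h Rep3 42, without PBS 6 h Rep2 51, without PBS 24 h Rep1 170 and without PBS 24 h Rep2 224. Without the block 26 probes passed. With the normexp background correction 0 passed in limma (31 at an unadjusted p of at most 0.05 with the same fold limit), and with the 6 arrays fitted alone as pairs 0 passed (261 unadjusted).

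**Figure D1:**
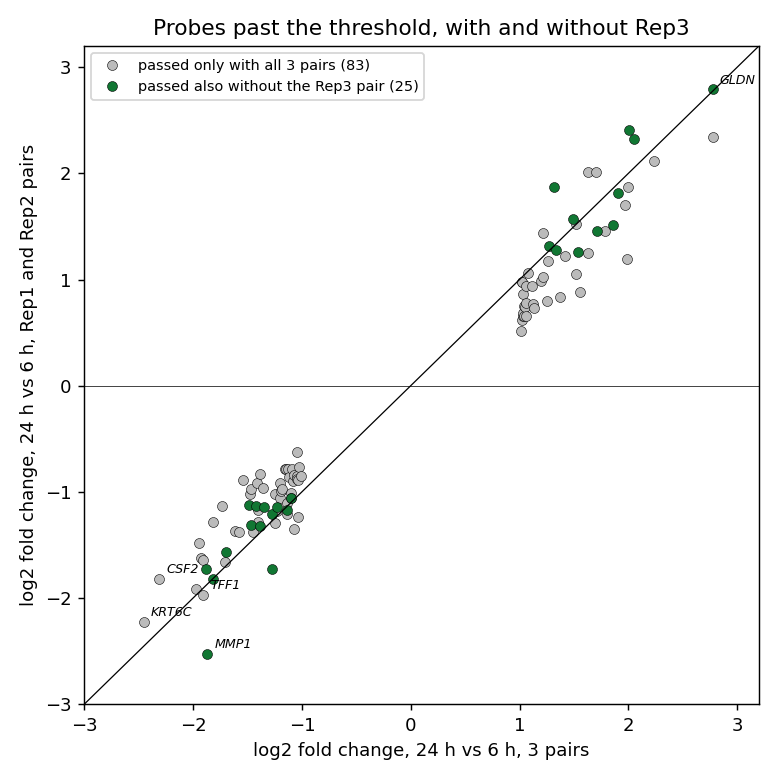
Each point is 1 of the 108 probes that passed, with its log2 fold change (24 h vs 6 h) over 3 pairs on the horizontal axis and over the Rep1 and Rep2 pairs alone on the vertical axis, and the diagonal marks equal values. All points keep their sign, which had to follow because each of these probes moved the same way in all 3 pairs. The 25 green points also passed without the Rep3 pair.

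The transcripts that fell, and that cleared the background flag on every array, included those of a secreted peptide, a thrombin receptor, a dynein chain and a small GTPase. They comprised 27 of the 61 lower probes, and 21 of the 61 were not well above background on any array at 24 h. TFF1, a trefoil peptide secreted by mucosal epithelia, had the largest fall among them. Its level at 6 h was 1.67, 1.08 and 2.16 in Rep1, Rep2 and Rep3, and at 24 h it was -0.91, -0.29 and 0.39. All 24 h arrays lay below all 6 h arrays, a fold change of 3.75 (log2 -1.91, SE 0.29, adjusted p = 0.00533). Without Rep3 the size was as large, -1.97, with an adjusted p of 0.0644. Its probe lies at hg19 chr21:43783440-43783499 on the minus strand.

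F2R encodes the thrombin receptor PAR1, a protease-activated receptor of the cell surface. Its level was -0.92, -0.54 and -0.82 at 6 h and -2.11, -1.98 and -2.60 at 24 h, with a wide gap between the groups. The fall of 1.47 on the log2 scale (SE 0.14, adjusted p = 0.000218) held without Rep3 at -1.32 (adjusted p = 0.00555). The second tested F2R probe differed by 0.02, so the fall was seen at hg19 chr5:76012549-76012608 and not at the other probe of the gene.

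The same contrast between probes of a gene was seen for DYNC2LI1, a light intermediate chain of the dynein motor that carries cargo back along cilia. Its probe read -4.84, -4.09 and -4.55 at 6 h and -5.84, -5.50 and -5.96 at 24 h. Every 24 h array was below every 6 h array, with a log2 fold change of -1.27 (SE 0.11, adjusted p = 5.61e-05), and -1.21 without Rep3 (adjusted p = 0.000583). A second probe of the gene differed by 0.05. CDC42, a small GTPase that controls cell polarity and actin, read -3.40, -2.99 and -3.20 at 6 h and -4.49, -4.18 and -4.60 at 24 h. Again no 24 h array reached a 6 h array, the log2 fold change was -1.23 (SE 0.13, adjusted p = 0.000545) and it was -1.14 without Rep3 (adjusted p = 0.00745), while the other 2 probes of CDC42 gave -0.12 and -0.23. PPP4R1L, whose name marks it as similar to a regulatory subunit of protein phosphatase 4, fell from -5.02, -4.96 and -4.58 to -5.93, -6.33 and -6.58, and held without Rep3 at -1.14 (adjusted p = 0.00745).

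Among the 61 lower probes, 26 had a second tested probe for their gene, and for 20 of these every other probe lay within 0.3 of 0. For 4 of the 26 another probe moved by 0.5 or more in the same direction. One of them was PSAPL1, a prosaposin-like gene, with -1.41 at the probe that passed and -1.47 at the other. The probe that passed differed by -0.95, -0.88 and -2.40 in the Rep1, Rep2 and Rep3 pairs. Without Rep3 it gave -0.91 and did not pass (limma adjusted p = 0.326).

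Further falls passed with all pairs but not without the Rep3 pair. GUCA2B, which encodes the peptide hormone uroguanylin, read -4.42, -4.97 and -3.89 at 6 h and -6.06, -6.08 and -5.87 at 24 h (log2 -1.58, SE 0.23, adjusted p = 0.00371). Its 3 values at 24 h lay close together and below all 6 h values, and without Rep3 the change was -1.38 (adjusted p = 0.0676). PRSS8 encodes prostasin, a membrane-bound serine protease of epithelia. It read -3.98, -3.09 and -2.44 at 6 h and -4.63, -4.47 and -4.85 at 24 h (log2 -1.48, adjusted p = 0.0274), where the spread was mainly at 6 h. MDFI, an inhibitor of MyoD family transcription factors, fell by 1.36 on the log2 scale (adjusted p = 0.0121), and MVB12B, a subunit of the ESCRT-I sorting complex, by 1.21 (adjusted p = 0.0236). The other tested probes of MVB12B gave -0.20 and -0.23.

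For some falls the Rep3 pair supplied most of the size. DNAH17, a heavy chain of axonemal dynein, read -2.65, -2.24 and -2.42 at 6 h and -3.44, -3.24 and -5.25 at 24 h. By far the lowest was the array labelled PBS 24 h Rep3, and the log2 fold change of -1.54 (adjusted p = 0.0446) became -0.89 without that pair. MARCH4, a membrane-bound ubiquitin ligase, read -1.14, -0.79 and -1.03 at 6 h and -1.85, -1.74 and -3.55 at 24 h, with -1.39 over all pairs (adjusted p = 0.0419) and -0.83 without Rep3. Over all 61 lower probes, the Rep3 pair had the largest of the 3 differences for 43.

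**Figure D2:**
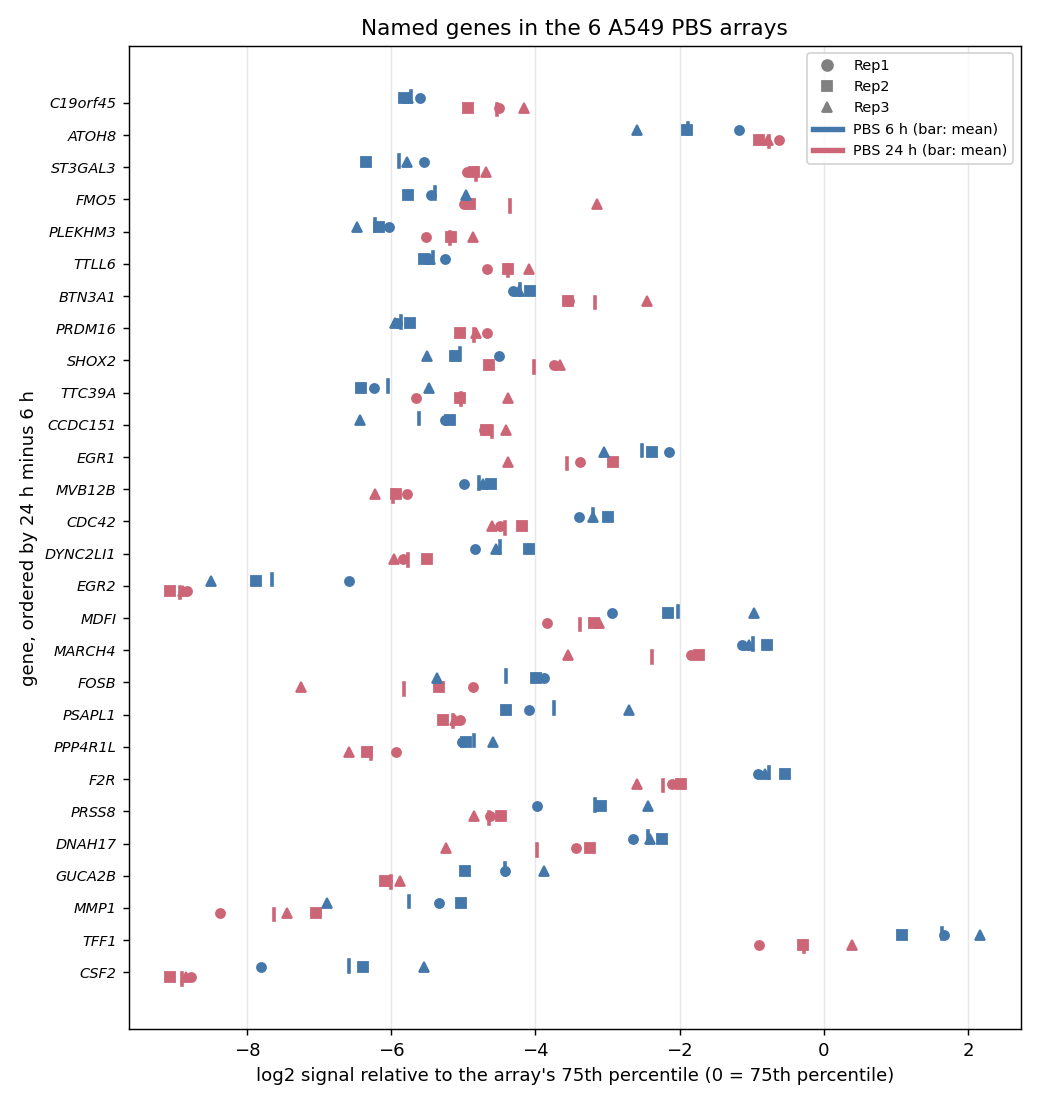
Levels of 28 named genes (log2 signal relative to the array's 75th percentile, horizontal axis) in the 6 A549 PBS arrays, with 6 h in blue, 24 h in red, a marker for each replicate number and a short bar for the mean. The 24 h values of F2R, CDC42, DYNC2LI1 and TFF1 lie wholly below the 6 h values, and DNAH17, MARCH4 and FOSB have their lowest value on the array labelled PBS 24 h Rep3.

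With all 3 pairs, immediate early genes were the list with the most members past the threshold. Of 32 tested, 3 were lower (FOSB, EGR2 and EGR1) and 0 higher, beside a background of 0.256 percent lower over all probes. Without Rep3 1 member passed (EGR2), as many as in the extracellular matrix list (MMP1). The list was at a median log2 difference of -0.22 in the Rep1 pair, -0.17 in the Rep2 pair and -0.05 in the Rep3 pair, against 0.01, 0.01 and 0.07 over all tested probes. In all 3 pairs 17 of the 32 were lower and 2 higher, while over all tested probes 18.8% were lower and 24.2% higher in all pairs.

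The windows of 250 bases before the transcription start of the 3 genes are shown because immediate early genes are known targets of serum response factor, which binds the CArG box. They are from RefSeq (GRCh38.p14), 5′ to 3′ on the strand of the gene: EGR1 at chr5:138465229-138465478 (plus), FOSB at chr19:45467746-45467995 (plus) and EGR2 at chr10:62816367-62816616 (minus, the first of 3 windows listed for EGR2). Capitals mark CArG boxes in EGR1 and EGR2, and the letters TATAAA in FOSB.
EGR1: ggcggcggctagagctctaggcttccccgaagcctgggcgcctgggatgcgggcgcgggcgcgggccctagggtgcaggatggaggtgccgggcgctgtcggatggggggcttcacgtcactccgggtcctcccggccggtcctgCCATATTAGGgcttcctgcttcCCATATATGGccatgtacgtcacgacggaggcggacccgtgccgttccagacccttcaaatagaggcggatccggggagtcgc
FOSB: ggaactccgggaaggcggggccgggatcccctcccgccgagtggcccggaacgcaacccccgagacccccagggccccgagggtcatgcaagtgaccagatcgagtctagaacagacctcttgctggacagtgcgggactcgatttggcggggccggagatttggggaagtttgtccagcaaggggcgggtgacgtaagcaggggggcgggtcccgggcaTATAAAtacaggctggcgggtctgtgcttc
EGR2: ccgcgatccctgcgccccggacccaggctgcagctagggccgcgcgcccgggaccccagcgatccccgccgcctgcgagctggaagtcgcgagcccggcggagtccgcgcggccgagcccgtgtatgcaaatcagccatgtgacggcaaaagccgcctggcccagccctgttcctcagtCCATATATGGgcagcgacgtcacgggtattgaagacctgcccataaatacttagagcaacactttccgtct
EGR1 held 2 CArG boxes, at 105 to 96 and 83 to 74 bases before the start, and EGR2 held 1 at 71 to 62. The FOSB window held none and had TATAAA at 30 to 25 bases before the start. A CArG box on either strand was found in 1.16% of 35116 promoter windows of this length and TATAAA in 10.7%. Of the 17 named genes that fell, 11 had a window, and EGR1 and EGR2 were those with a CArG box. Among the 11 that rose, 8 had a window and 0 held one. The CArG box was added to the searched motifs after the values had been seen, and a match is a description of these letters only.

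EGR1, a zinc finger transcription factor induced by growth factors, was well above background on all 6 arrays. It read -2.15, -2.38 and -3.05 at 6 h and -3.38, -2.93 and -4.38 at 24 h. Each 24 h array was below the 6 h array of its slide, although the groups overlapped, with a log2 fold change of -1.04 (SE 0.17, adjusted p = 0.00687) and -0.89 without Rep3 (adjusted p = 0.0713). FOSB, a partner of JUN proteins in the AP-1 complex, read -3.88, -3.99 and -5.37 at 6 h and -4.87, -5.33 and -7.25 at 24 h, and was well above background on 3 arrays at 6 h and 2 at 24 h. It was lower within every slide (log2 -1.41, SE 0.27, adjusted p = 0.0203), with -1.17 and an adjusted p of 0.126 without Rep3. EGR2, a relative of EGR1, read -6.58, -7.87 and -8.50 at 6 h and -8.83, -9.07 and -8.89 at 24 h. It was well above background on 1 array at 6 h and on 0 at 24 h, so the size of its fall is not given. It passed with Rep3 (adjusted p = 0.0225) and without (adjusted p = 0.0104).

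The other members of the list split. FOSL1, another FOS family member, read -0.46, 0.03 and 0.22 at 6 h and -1.31, -0.62 and -2.16 at 24 h, with an adjusted p of 0.0505. HBEGF, a ligand of the EGF receptor, read -3.29, -2.83 and -2.94 at 6 h and -3.71, -3.46 and -3.75 at 24 h, with the same adjusted p of 0.0505. In both the groups were separate and the test missed the threshold. FOS itself went the other way without passing, from -1.71, -1.80 and -3.01 to -1.68, -1.22 and -1.96 (adjusted p = 0.209). KLF6, a zinc finger factor of the early response, was lower by a like amount in each pair, with 2.43, 2.38 and 2.52 at 6 h and 2.17, 2.13 and 2.30 at 24 h (adjusted p = 0.233). EGR4, an EGR family member outside the list, passed only without the Rep3 pair and was not well above background on any array.

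**Figure D3:**
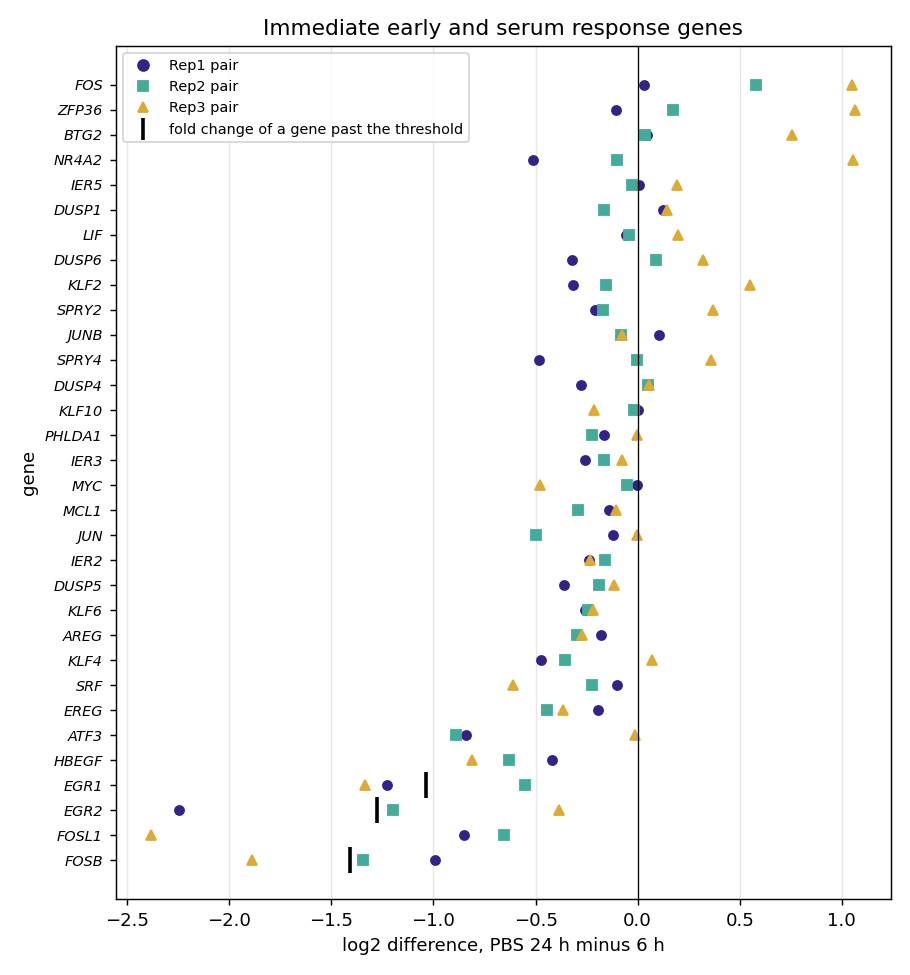
The log2 difference, PBS 24 h minus 6 h, of the 32 immediate early and serum response genes in each slide pair, with 1 marker shape per pair and a black bar for the fold change of the 3 genes that passed. FOSB, FOSL1, EGR2, EGR1 and HBEGF lie below 0 in all pairs, and FOS lies above 0 in all pairs.

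MMP1 and CSF2, secreted products that early response factors are known to induce, were also lower at 24 h. Each was the only member that passed in its list, extracellular matrix (34 tested) and inflammatory genes (26 tested). A link between their falls and those of the immediate early genes was not tested. MMP1 encodes interstitial collagenase, and read -5.34, -5.03 and -6.89 at 6 h and -8.37, -7.05 and -7.44 at 24 h. It was well above background on 2 arrays at 6 h and on 0 at 24 h, which makes it at least 1.97-fold lower (adjusted p = 0.00687, and 0.000459 without Rep3). CSF2 encodes the cytokine GM-CSF, and read -7.81, -6.40 and -5.55 at 6 h and -8.77, -9.07 and -8.85 at 24 h, at least 1.1-fold lower (adjusted p = 0.00687, and 0.127 without Rep3). Such a bound sets the mean of the brighter group against the mean, over the dimmer arrays, of the lowest signal that was well above background there, or of the probe's own signal where that was higher. Among the 61 lower probes 14 had such a bound, from 1.02-fold to 2.9-fold. The highest belonged to KRT6C, an epithelial keratin chosen here after its values were seen, with -6.03, -5.30 and -4.24 at 6 h and -8.85, -6.94 and -7.16 at 24 h.

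Most probes that rose were dim. Of the 47, 28 were not well above background on any 6 h array, 9 were not on any of the 6 arrays, and 12 were on all 6. Of those 12, 11 carried a gene symbol, and their fold changes lay between 2.02 and 2.29. None of these 11 passed without the Rep3 pair.

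C19orf45, now named SAXO5, had the largest rise among them. It read -5.61, -5.82 and -5.77 at 6 h and -4.51, -4.94 and -4.16 at 24 h, with the groups separate (log2 1.19, SE 0.20, adjusted p = 0.0114, and 0.99 without Rep3). ATOH8, a basic helix-loop-helix transcription factor, read -1.18, -1.90 and -2.59 at 6 h and -0.63, -0.91 and -0.78 at 24 h, so that its 6 h values were spread and its 24 h values close (log2 1.12, adjusted p = 0.0152, and 0.77 without Rep3). The other tested probe of ATOH8 differed by 0.15. TTLL6, an enzyme that adds glutamate chains to tubulin, rose at both of its tested probes, by 1.04 (adjusted p = 0.0133) and 1.06. Its first probe read -5.26, -5.54 and -5.46 at 6 h and -4.67, -4.38 and -4.09 at 24 h, and the groups did not overlap.

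Other rises were found in genes of unlike function. ST3GAL3, a sialyltransferase of the Golgi, rose by 1.07 on the log2 scale (adjusted p = 0.0133), and by 1.06 without Rep3. FMO5, a flavin-containing monooxygenase, rose by 1.04 (adjusted p = 0.0405), its other probe gave 1.51, and the value without Rep3 was 0.66. BTN3A1, a butyrophilin that takes part in the recognition of phosphoantigens by gamma delta T cells, read -4.31, -4.08 and -4.24 at 6 h and -3.54, -3.54 and -2.45 at 24 h (log2 1.03, adjusted p = 0.0468), with the highest value on the array labelled PBS 24 h Rep3 and a change of 0.65 without that pair. PRDM16, a zinc finger factor of brown fat, and SHOX2, a homeobox factor, rose by 1.03 and 1.02, and gave 0.97 and 0.62 without Rep3. TTC39A had the lowest adjusted p of the 11, 0.00647, with -6.24, -6.42 and -5.48 at 6 h and -5.66, -5.04 and -4.38 at 24 h, and rose within every slide although the groups overlapped. The remaining rises were PLEKHM3 (1.04, and 0.75 without Rep3) and CCDC151, a docking protein of ciliary outer dynein arms (1.02, and 0.52). The other tested probes gave 0.16 and 0.41 for PLEKHM3, 0.42 and 0.53 for ST3GAL3, 0.79 for BTN3A1 and 0.61 for TTC39A.

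Of the 47 rises, 21 had another tested probe for their gene, for 12 of these another probe moved by 0.5 or more in the same direction, and for 6 every other probe lay within 0.3 of 0. The largest rises by bound were RAET1K, at least 2.72-fold, and GLDN, at least 2.03-fold, both named after their values were seen. GLDN encodes gliomedin, a secreted adhesion protein. It read -8.99, -8.19 and -8.70 at 6 h, where 0 arrays were well above background, and -5.20, -6.39 and -5.97 at 24 h, where all 3 were. It passed with Rep3 (adjusted p = 0.00126) and without (adjusted p = 0.0205). RAET1K passed with Rep3 only (adjusted p = 0.0433, and 0.35 without).

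Lipid supply genes differed by small amounts. Of the 25 tested genes of cholesterol synthesis and uptake, 0 passed, 15 were higher in all 3 pairs and 0 lower in all 3. Their median difference was 0.22, 0.20 and 0.22 in the Rep1, Rep2 and Rep3 pairs, where 24, 23 and 16 of the 25 were higher. The members with the highest signal were EBP, a sterol isomerase, with 4.55, 4.43 and 4.95 at 6 h and 4.57, 4.41 and 4.21 at 24 h, and FDPS, which makes farnesyl diphosphate, with 3.71, 3.56 and 3.85 and then 3.88, 3.69 and 3.51. Both were lower in the Rep3 pair, and neither passed (adjusted p = 0.457 and 0.966). INSIG1, which holds back the sterol-sensing transcription factors, read -0.71, -1.02 and -0.68 at 6 h and -0.12, -0.52 and 0.26 at 24 h (adjusted p = 0.0953). In the fatty acid list 7 of 13 were higher in all pairs and 0 lower, 0 passed, and the medians were 0.13, 0.18 and 0.31. There the acyl-CoA synthetase ACSL3 (0.46, adjusted p = 0.00401) and the desaturase FADS2 (0.47, adjusted p = 0.0362) were under the fold limit.

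Clock genes were mostly higher at 24 h, and 0 passed. Of 18 tested, 12 were higher and 2 lower in all 3 pairs, with medians of 0.11, 0.23 and 0.30. HLF, a clock-controlled PAR bZIP factor, read -5.75, -5.66 and -5.74 at 6 h and -4.66, -5.22 and -5.20 at 24 h (log2 0.69, adjusted p = 0.0398, and 0.187 without Rep3). DBP, its relative, read -2.69, -3.09 and -3.07 at 6 h and -2.10, -2.16 and -3.07 at 24 h. It differed in the Rep1 and Rep2 pairs and not in the Rep3 pair, with an adjusted p of 0.166 over all pairs and 0.0446 without Rep3 (log2 0.76). ARNTL, the gene of the clock activator BMAL1, was higher in every pair, with -0.43, -0.39 and -0.50 at 6 h and -0.06, -0.13 and -0.10 at 24 h (adjusted p = 0.103).

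Of 26 tested inflammatory and NF-kB target genes, 1 passed, CSF2, while 14 were lower and 2 higher in all 3 pairs. The medians were -0.17, -0.17 and -0.50. RELB, an NF-kB subunit, read 4.04, 4.28 and 4.32 at 6 h and 3.66, 3.78 and 3.12 at 24 h (log2 -0.69, adjusted p = 0.0225, and 0.264 without Rep3). BIRC3, an inhibitor of apoptosis that NF-kB induces, read 1.43, 1.47 and 2.04 at 6 h and 0.82, 0.85 and 0.77 at 24 h (log2 -0.83, adjusted p = 0.0475, and 0.491 without Rep3). Both had separate groups and changes under the fold limit. MMP1 and TFF1 were the single members that passed in the extracellular matrix list (34 tested) and the epithelial list (26 tested). In the remaining 25 of 29 lists 0 members passed.

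Cell cycle and stress lists differed between the pairs. The 54 tested G2/M genes had a median difference of -0.11 in the Rep1 pair, -0.14 in the Rep2 pair and -1.44 in the Rep3 pair, and 0 passed. In all 3 pairs 40 of the 54 were lower and 0 higher, against 18.8% and 24.2% of all tested probes. Below 0 were 46 in the Rep1 pair and 43 in the Rep2 pair, so the direction was shared and the size was not. In the Rep1 pair the members lay between -0.37 and 0.11, in the Rep2 pair between -0.42 and 0.33, and in the Rep3 pair between -2.11 and -0.15, with 43 of 54 below -1. CCNB1, the cyclin of entry into mitosis, shows the pattern, with 3.86, 3.98 and 4.06 at 6 h and 3.73, 3.80 and 2.07 at 24 h (adjusted p = 0.279). BIRC5, which encodes the mitotic protein survivin, did likewise, with 5.13, 5.25 and 5.44 at 6 h and 5.04, 5.11 and 3.66 at 24 h. Their low values lay on the array labelled PBS 24 h Rep3, and without its pair the G2/M median was -0.12.

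Other lists followed the same division. Medians in the Rep1, Rep2 and Rep3 pairs were 0.03, -0.07 and -0.74 for S phase genes, 0.02, -0.05 and -0.79 for replication genes and -0.07, -0.01 and -0.65 for ribosome biogenesis. In the opposite direction they were 0.04, 0.13 and 0.74 for ATF4 targets, which serve amino acid supply, 0.14, 0.11 and 0.90 for FOXO targets and -0.02, 0.02 and 0.62 for the unfolded protein response. CHAC1, an ATF4 target that degrades glutathione, read 0.65, 0.03 and -0.30 at 6 h and 0.24, 0.36 and 1.77 at 24 h. PHGDH, the first enzyme of serine synthesis, was higher in every pair, with 1.41, 1.21 and 1.03 at 6 h and 1.94, 1.81 and 2.76 at 24 h (log2 0.96, adjusted p = 0.0456, and 0.2 without Rep3). In the Rep1 and Rep2 pairs no list of the 29 had a median over 0.25 in size, and in the Rep3 pair 9 were over 0.5. None of the 21 genes of a list drawn up around the study's targets passed.

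**Figure D4:**
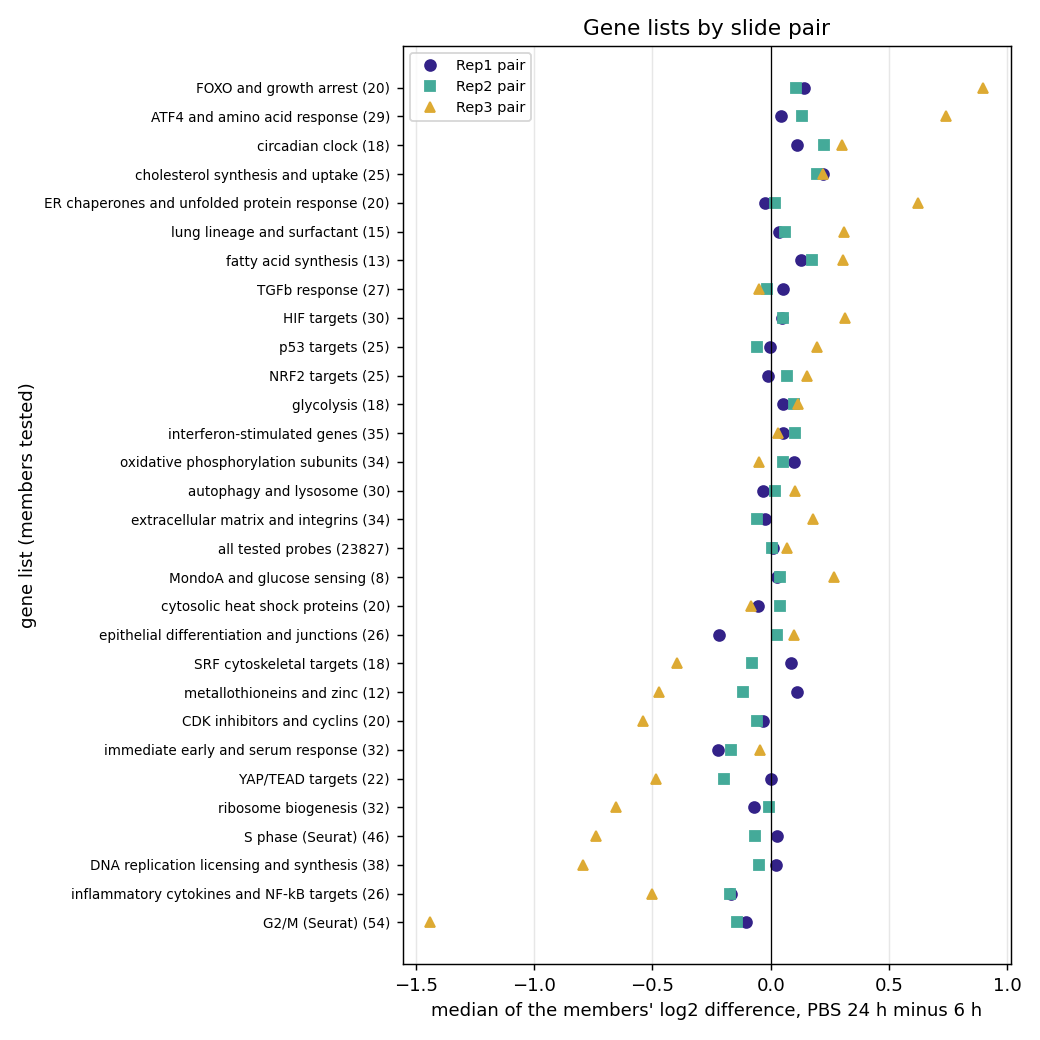
Median log2 difference, PBS 24 h minus 6 h (horizontal axis), of each gene list and of all tested probes in the Rep1, Rep2 and Rep3 pairs, with the number of members tested in brackets. The Rep1 and Rep2 markers stay within 0.25 of 0, while the Rep3 markers of the G2/M list (-1.44) and the FOXO list (0.90) lie far out, and those of the cholesterol list coincide (0.20 to 0.22).

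The same time comparison in the other cultures gave 280 probes in H1975 cells with PBS (percent called 1.18), 70 lower (0.294) and 210 higher (0.881), and 202 in A549 cells with Pirfenidone (percent called 0.848), 120 lower (0.504) and 82 higher (0.344). H1975 replicate numbers do not pair arrays, and without H1975 24 h Rep2 and 6 h Rep3, which shared a slide, the count was 161. The Pirfenidone count was 308 without its Rep3 pair, 483 without Pirfenidone 24 h Rep3, 117 without 6 h Rep3, 111 without 6 h Rep2 and 106 without the Rep2 pair. The A549 comparisons used different arrays of the same slides, and both include arrays of the Rep3 slide. Of the 61 probes that fell in A549 with PBS, 34 also fell in A549 with Pirfenidone (55.7% of the first list and 28.3% of the second) and 12 fell in H1975 (19.7% of the first list and 12 of the 70 there). Without the 4 arrays of the Rep3 slide, 27 probes fell with PBS and 251 with Pirfenidone, and 16 fell in both. Of the 47 that rose, 3 rose with Pirfenidone (6.38% and 3.66%) and 5 in H1975 (10.6% and 2.38%). Not 1 of the 108 was called in the opposite direction in either. The median change of the 61 was -1.12 with Pirfenidone and -0.35 in H1975, and that of the 47 was 0.29 and 0.50. A difference between the A549 time changes with PBS and with Pirfenidone was not tested.

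There were 6 probes lower in all 3 comparisons, those of TFF1, DYNC2LI1, CDC42, the keratin KRT34, the ubiquitin ligase subunit GID4 and 1 transcript known by an identifier only. The H1975 PBS arrays also lay at place 2 at 6 h and place 4 at 24 h. The A549 Pirfenidone arrays lay at place 1 at 6 h and place 3 at 24 h. Time and place on the slide therefore cannot be told apart in any of the 3 comparisons. For DYNC2LI1 the log2 fold change was -1.27 in A549 with PBS, -1.75 with Pirfenidone and -1.15 in H1975, and for CDC42 it was -1.23, -1.12 and -1.05. TFF1 fell by 1.91, 1.99 and 1.58. EGR1 fell by 1.36 with Pirfenidone and was at 0.09 in H1975, and FOSB fell by 1.98 with Pirfenidone and was at -0.17 in H1975. The difference between the lines had an adjusted p of 0.0571 for EGR1 and 0.235 for FOSB, which did not pass. For EGR2 it passed (log2 difference -1.77, SE 0.35, adjusted p = 0.0451). In H1975 EGR2 read -4.42, -3.53 and -3.56 at 6 h in Rep1, Rep2 and Rep3. On the 24 h arrays of the same file-name dates it read -3.76, -3.18 and -3.10, higher on each date, although the groups overlapped. In A549 EGR2 was well above background on 1 of the 6 arrays, so the size rests on values near background.

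The test of the difference between the lines, A549 minus H1975 in PBS, passed for 63 probes (percent called 0.264), of which 11 had also passed in A549 and 37 in H1975. The F2R probe that fell in A549 was among them, with -1.47 in A549 and -0.42 in H1975 (difference -1.05, SE 0.20, adjusted p = 0.0342). The other tested F2R probe differed by 0.02 in A549. PRSS8 gave -1.48 and 0.94 (difference -2.42, adjusted p = 0.0241). GUCA2B was not well above background on any of the 6 H1975 arrays, so no difference is given for it. KPNA7, an importin of nuclear transport, read -4.16, -3.98 and -3.86 at 6 h and -5.20, -4.95 and -4.41 at 24 h in A549. It passed there without Rep3 (-1.01, adjusted p = 0.0142) and was under the fold limit with it (-0.85), and its change in H1975 was 0.49 (difference -1.34, adjusted p = 0.00536).

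**Figure D5:**
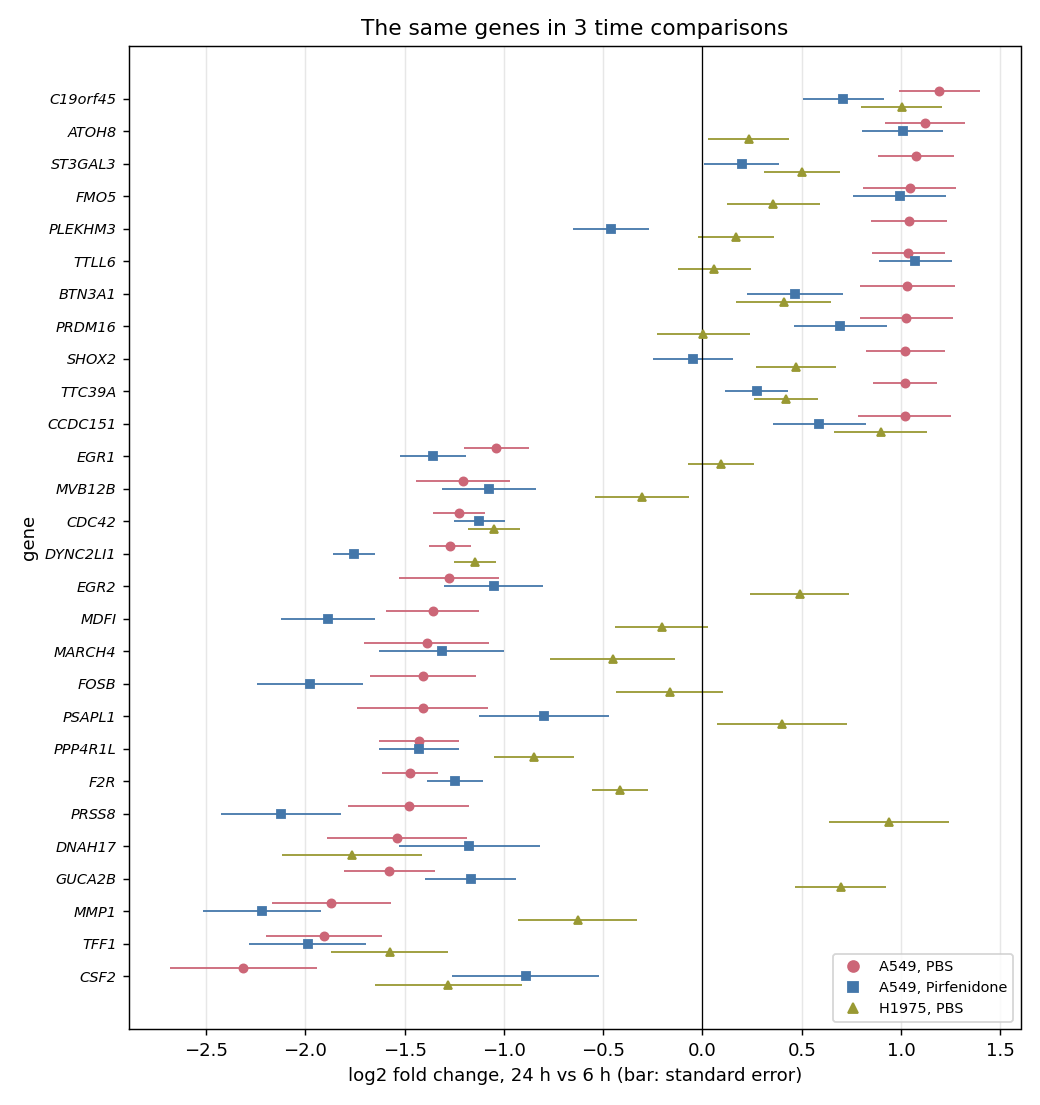
Log2 fold change, 24 h vs 6 h, with its standard error as a bar, of the 28 named genes in A549 with PBS (red circles), A549 with Pirfenidone (blue squares) and H1975 with PBS (green triangles). The bars rest on a spread estimated over all 24 arrays, not on the spread within each comparison. CDC42, DYNC2LI1 and TFF1 lie below -1 in all 3, whereas PRSS8 lies below -1 in A549 with PBS and at 0.94 in H1975.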

How the data were processed

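RNA of 24 samples was labelled with the Agilent Low Input Quick Amp kit (one color). Per the file headers, the authors' Feature Extraction 11.5.1.1 gave the deposited intensity of each spot, background-subtracted within the array, with probes placed on hg19. The authors' flags for background and outlier spots were also used. A deposited table of log2 values, centred per probe in a way not given in the sources used here, served as an alternative. Each array's log2 intensity was centred on its 75th percentile over non-control spots and averaged by probe, and 23827 of 34127 probes were tested, those flagged well above background throughout the 3 arrays of 1 or more of the 8 groups. Limma 3.58.1 (R 4.3.3) fitted 8 groups and 6 blocks over 24 arrays. Blocks were slides in A549 and file-name dates in H1975. Pairing by slide number was checked: deviations from the group means correlated at r = 0.39, 0.38 and 0.27. The methods' family-wise permutation correction cannot be reached with 3 pairs, so Benjamini-Hochberg adjustment was used. Genes were named by a rule: the 12 largest changes each way well above background on all 6 arrays, up to 4 called members of each list (where 0 passed, the 2 with the highest signal), probes called only without Rep3, the 3 largest line differences each way, and a list drawn up around the study's targets. Further list members shown with values were picked with those values known. Results of 2 genes are not reported here. Members and lists were chosen with earlier results of these data known. The tests were tested on simulated data with independent noise, where probes were called by the adjusted p alone. No simulated array stood apart as PBS 24 h Rep3 did, so that case was not covered. The number of arrays limits precision. Promoters came from RefSeq.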

Additional observations from a re-analysis of the deposited data

Results flagged for a closer look

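The time change in PBS differed between A549 and H1975 for 63 probes by the test of the difference itself (limma, Benjamini-Hochberg adjusted p of at most 0.05 and a log2 difference of at least 1). Of these, 23 were well above background on all 12 PBS arrays, and 4 genes with the largest differences among them are given here. PTGS2, the inducible cyclooxygenase of prostaglandin synthesis, had a log2 difference of 2.93 (SE 0.38, adjusted p = 0.00488). It read -1.15, -1.54 and -1.16 at 6 h and -1.50, -1.41 and -0.12 at 24 h in A549, and -4.44, -2.60 and -2.59 at 6 h and -5.43, -5.24 and -6.93 at 24 h in H1975, so that the change lay in H1975. PLCXD1, a phospholipase-like gene, had a difference of 1.19 (adjusted p = 0.0114), with 0.49 in A549 and -0.70 in H1975.

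PRSS8 had a difference of -2.42 (adjusted p = 0.0241). It fell in A549. In H1975 it read 0.98, -0.30 and -0.17 at 6 h in Rep1, Rep2 and Rep3. The 24 h arrays of the same file-name dates read 2.59, 0.25 and 0.51. It was thus higher at 24 h on each date, although the groups overlapped and the change did not pass (limma adjusted p = 0.0761). C20orf195 differed by -1.87 (adjusted p = 0.0126), with -0.42 in A549 and 1.45 in H1975. The count of 63 became 12 without H1975 24 h Rep2 and 6 h Rep3, which shared a slide, 23 without H1975 6 h Rep3, 29 without H1975 24 h Rep2, 37 without A549 6 h Rep2, 38 without the A549 Rep1 pair, 39 without H1975 6 h Rep2 and 40 without H1975 24 h Rep3 and 6 h Rep1, which shared another, and 56 without the A549 Rep3 pair.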

How the results depend on the processing

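Counts for A549 PBS (108 as reported), H1975 PBS (280), A549 Pirfenidone (202) and the line difference (63) are given in that order. Without the replicate block they were 26, 75, 61 and 6. With only the arrays compared, paired by the block, they were 0, 0, 0 and 1 (261, 368 and 339 at an unadjusted p for the first 3). With only the arrays of the line they were 14, 302 and 89. With normexp they were 0, 39, 40 and 0 (31 and 53 unadjusted for the zeros). Restricting to probes well above background on all arrays compared gave 42, 158, 108 and 23, no fold limit 375, 1816, 1438 and 102, and Holm adjustment 18, 49, 28 and 7. The methods' paired t-test gave 0 in each comparison after Benjamini-Hochberg, and 83, 239 and 126 unadjusted. A random replicate block gave 132, 269, 212 and 37. Leaving out replicates gave 30 to 224, 161 to 273, 106 to 483 and 12 to 94; leaving out the Rep3 array pair gave 30 for A549 PBS and 308 for Pirfenidone. Without the PBS 24 h Rep3 array alone the A549 PBS count was 38, and the line difference was also 38 without the A549 Rep1 pair; without the Pirfenidone 6 h Rep2 array the Pirfenidone count was 111. Without the 4 A549 arrays of the Rep3 slide the counts were 46 for PBS and 451 for Pirfenidone. Quantile normalization called 30 higher and 73 lower for A549 PBS, and no filter 63 and 55, against 47 and 61. Slide blocks, the authors' values and kept outlier spots left each count within 1.5 times. No change of the 29 named genes followed reversed in any of 25 alternatives (24 for FOSB, EGR2, MMP1 and CSF2, which were not tested when restricted to probes well above background). Those that passed moved the same way in all 3 pairs, so leaving out a pair could not reverse them. Of the 29, 28 no longer passed with normexp, 28 with only the arrays compared and 22 without the Rep3 pair. The causes of the shifts were not tested. Of the 47 rises, 28 were not well above background on any 6 h array.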
